A study of Mus musculus with 24 samples.

Results

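miR-122 was followed through both of its mature arms, mmu-miR-122-5p and mmu-miR-122-3p (below miR-122-5p and miR-122-3p), in extracellular vesicles (EVs) isolated from mouse serum. The arms were taken by name from the deposited miRNA count table and are 2 of the 1966 mature miRNAs listed there. The libraries came from 24 wild type C57BL/6 mice of 14 to 16 weeks of age, with 1 small RNA library per mouse and 6 mice in each of the groups Control, S6h, S24h and S72h. The S6h, S24h and S72h mice underwent tibia surgery, an open fracture of the tibia stabilized with a pin under isoflurane and buprenorphine, and were bled 6, 24 and 72 h later, respectively. S24h and S72h mice also received analgesia every day, and Control mice received saline in its place and no surgery. Blood was drawn through the wall of the left ventricle, left to clot, and the EVs were precipitated from the serum with a polymer kit. The Control mice were those kept beside the S6h mice and taken from their animal batch, while the S24h and S72h mice had a control set of their own that was not analysed here. In comparisons of S24h and S72h with Control or with S6h, animal batch and time after surgery therefore cannot be told apart. The paper reports that its control sets did not differ statistically and kept only the set used here, which was not tested here. In every comparison with Control, surgery cannot be told apart from the isoflurane and buprenorphine given with it.

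miR-122 is the miRNA by which hepatocytes are best known. It makes up a large part of the miRNA in a hepatocyte, it acts in cholesterol and fatty acid metabolism, and it is scarce in most other tissues. When hepatocytes are injured it passes into the blood, where it is used as a circulating marker of liver damage. Like other miRNAs it is cut from a hairpin whose 5p and 3p strands are separated. The 5p strand is the guide that is loaded into Argonaute, and the 3p strand is mostly degraded.

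The miRNAs that served as the closest company of miR-122-5p below were other liver-enriched miRNAs and those whose levels followed it most closely from mouse to mouse. Their mature sequences in RefSeq for GRCm38.p6 are given 5′ to 3′ with the seed, bases 2 to 8, in capitals, to show that they belong to different seed families.
miR-192-5p: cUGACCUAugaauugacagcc
miR-194-5p: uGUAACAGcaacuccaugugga
miR-148a-3p: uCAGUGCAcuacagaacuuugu
miR-182-5p: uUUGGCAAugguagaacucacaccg
miR-92a-3p: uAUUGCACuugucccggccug
miR-125a-5p: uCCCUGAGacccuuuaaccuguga

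No seed is shared among these 6 miRNAs. The seed of miR-192-5p is also that of miR-215-5p, and the seed of miR-148a-3p is also that of miR-148b-3p and miR-152-3p. In the table, 5 other miRNAs share the seed of miR-92a-3p, among them miR-25-3p and miR-92b-3p, and 4 others share that of miR-125a-5p, among them miR-125b-5p. No other miRNA of the table with a RefSeq sequence had the seed of miR-194-5p or of miR-182-5p. The hairpins of miR-192 and of 1 of the 2 miR-194 copies are neighbours on the plus strand of chromosome 19. Mir194-2 spans 6264643 to 6264728 and Mir192 spans 6264844 to 6264932, with 115 bases between them. Mir148a lies on the minus strand of chromosome 6, from 51269812 to 51269910.

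For miR-122 itself, the hairpin gene Mir122 (ENSMUSG00000065402.1) lies on the plus strand of chromosome 18 in GRCm38, from 65248861 to 65248926, which is 66 bases. It lies inside a lincRNA gene on the same strand, AC157910.3, annotated from 65244287 to 65252621. A further hairpin gene, Mir122b, is annotated over nearly the same bases, from 65248863 to 65248921. Both arms of miR-122b had 0 counts over all 24 libraries. The strand setting of the counting is not given in the sources used here, and whether the overlap of the hairpins cost reads of miR-122 was not tested.

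The values analysed were read counts per mature miRNA without normalization, and their sum per library, which is the depth behind each value, ranged from 63956 to 471801 with a median of 115242.5. By group the totals were 63956 to 263211 in Control, 102568 to 471801 in S6h, 66652 to 143856 in S24h and 65017 to 245013 in S72h. At least 1 count was found for 667 miRNAs. Levels are given below in CPM, the usual scale on which a count is divided by the library's own total. The intervals are exact (Clopper-Pearson) 95% binomial intervals, which cover the counting error of reads only. The paper describes random adapter bases that were trimmed at alignment and no removal of PCR copies, so copies may count as separate reads. For a count of 0, a limit of 3 counts was used in place of the interval. In bulk EV RNA, fewer vesicles of hepatocytes and less miR-122 in each of them cannot be told apart. Nor can vesicle cargo be told apart from miRNA outside vesicles. The paper names lipoprotein-bound miRNA as a possible contaminant of EVs isolated by precipitation.

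miR-122-5p was counted in every library and was among the most abundant miRNAs of the serum EVs. Its 144808 counts were 4.31% of all 3359369 counts, which placed it at rank 5, and 75.7% of them lay in 4 libraries. The 2 leading miRNAs by pooled counts were miR-1a-3p of striated muscle with 8.67% and the widely expressed miR-21a-5p with 5.86%. By mean CPM over the 24 libraries, in which each mouse counts equally, miR-122-5p was at rank 7 with 42607 CPM, and miR-21a-5p (68472 CPM) led before miR-1a-3p (58589 CPM). Inside a library, miR-122-5p ranged from rank 1, in 4 libraries, to rank 66. Its level spanned a 135-fold range among the 24 mice, from 2214 CPM in S6h replicate 3 to 298410 CPM in S72h replicate 4.

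In the Control group, miR-122-5p had 159940, 3674, 9976, 156789, 6926 and 127038 CPM in replicates 1 to 6. Replicates 1, 4 and 6 were high and replicates 2, 3 and 5 were low, with no mouse between 9976 and 127038 CPM. The counts behind the extremes were 42098 in replicate 1 and 235 in replicate 2. Counting error was far smaller than this gap, with 95% intervals of 158542 to 161346 CPM in replicate 1 and 3220 to 4174 CPM in replicate 2. In replicate 1 the miRNA alone took 16.0% of the library.

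In the S6h group, the levels of miR-122-5p were 14592, 28328, 2214, 11698, 16370 and 2882 CPM. Replicates 3 and 6 lay below every Control mouse, and the other 4 mice lay between the low and the high Control mice. In the S24h group it had 36467, 52154, 8927, 7892, 13883 and 23113 CPM. From the lowest to the highest mouse the distance was 6.61-fold in S24h, against 12.8-fold in S6h and 43.5-fold in Control. In the S72h group the levels were 8746, 7381, 13192, 298410, 4753 and 7212 CPM. Replicate 4 stood apart from the other 5 mice, which had 8257 ± 3112 CPM (SD, n = 5), and it held 86.8% of the miR-122-5p counts of the group. The range in S72h was 62.8-fold with this mouse and 2.78-fold without it, so that S24h was the narrowest group with all mice and S72h without that mouse. In that library 29.8% of all counts were miR-122-5p, so that the shares of all other miRNAs were 1.43 times higher when computed without it.

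**Figure D1:**
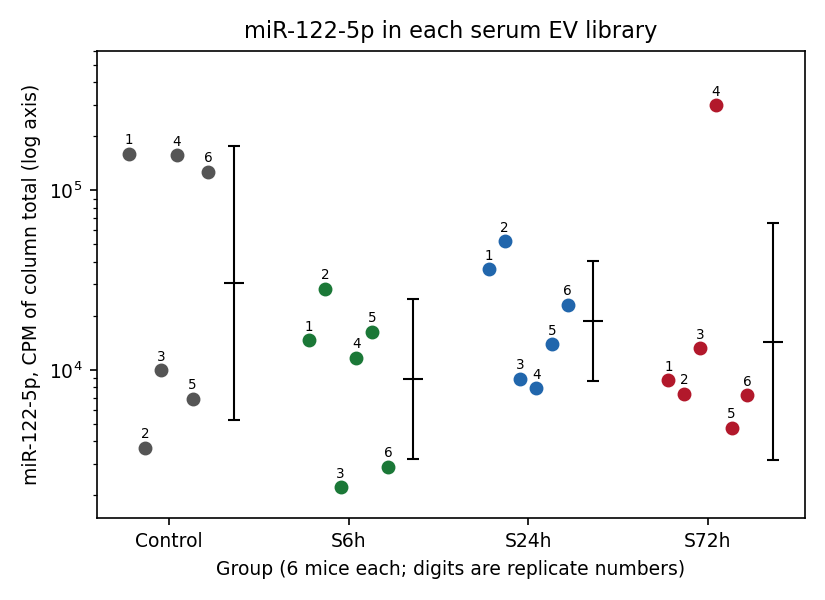
miR-122-5p in each serum EV library in CPM of the column total, on a log axis, by group; digits are replicate numbers, the horizontal mark is the geometric mean and the bar is 1 SD of log2 CPM on either side (n = 6). Control replicates 1, 4 and 6 and S72h replicate 4 lie above 100000 CPM, and all other libraries lie between 2214 and 52154 CPM.

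The order of the groups depended on the summary used. The arithmetic means were 77391 ± 78138 CPM in Control, 56616 ± 118487 CPM in S72h, 23740 ± 17536 CPM in S24h and 12681 ± 9681 CPM in S6h (SD, n = 6 each). By the median, Control led with 68507 CPM, followed by S24h with 18498, S6h with 13145 and S72h with 8064 CPM. By the geometric mean the order was Control with 30540, S24h with 18724, S72h with 14353 and S6h with 8928 CPM. The place of S72h thus differed among the 3 summaries, and Control was highest in each. miR-122-5p overlapped between the groups in all 6 pairs. Of all tested miRNAs, the share without overlap was 0% in S6h, 4.76% in S24h and 1.19% in S72h against Control, 10.3% in S24h against S6h, 0% in S72h against S24h and 1.59% in S72h against S6h. Such overlap does not show whether the levels of neighbouring groups differed, which the tests below address.

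The spread of miR-122-5p between mice of a group was wide for a miRNA of its abundance. Its within-group SD on the log2 scale was 1.91, rank 2 among the 77 miRNAs that averaged 1000 CPM or more, behind miR-215-5p with 1.96. The median of these 77 was 0.61. Among all 252 miRNAs tested, many of which had few counts, it was at rank 89 and the median was 1.51.

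The first comparison asked whether the EV level of miR-122-5p differed from Control at each time after surgery. Fold changes were estimated with edgeR (quasi-likelihood, 1 joint model of the 4 groups), and p-values were adjusted by Benjamini-Hochberg over the 252 miRNAs that reached 10 CPM in 12 or more libraries. Calls required both an adjusted p below 0.05 and a change of 1.5-fold or more. These fold changes are of arithmetic mean levels and so weigh the high libraries heavily. miR-122-5p was called in none of the 3 comparisons.

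In S6h against Control, the log2 fold change of miR-122-5p was -2.64 (SE 1.01, 95% interval -4.71 to -0.58; unadjusted p = 0.0137, edgeR adjusted p = 0.991). None of the 252 miRNAs was called there (0% by edgeR, and 0 by DESeq2), and 9 had an unadjusted p under 0.05. In S24h against Control the log2 fold change was -1.98 (SE 0.99, interval -4.00 to 0.03, edgeR adjusted p = 0.176). Of all miRNAs 30 were called there (11.9%), of which 10 were higher and 20 lower, a split that became 23 and 17 with upper quartile scaling. In S72h against Control the value was 0.11 (SE 0.95, interval -1.83 to 2.05, edgeR adjusted p = 0.975), with 9 miRNAs called (3.57%), 5 of them higher and 4 lower, or 16 and 3 with upper quartile scaling. So wide an interval at 72 h does not show that S72h and Control were alike. Over all miRNAs tested, the median change was -0.02, -0.21 and -0.06 on the log2 scale in these 3 comparisons, and it moved to 0.08 at 24 h and to 0.12 at 72 h with upper quartile scaling.

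The value at 72 h rested on a single mouse. Without S72h replicate 4 the log2 fold change of miR-122-5p against Control was -3.37 (SE 0.81), and the miRNA was called (edgeR adjusted p = 0.0233), 1 of 7 calls (2.78%). With all mice kept, the sign at 72 h was not stable either. The value was -0.0042 with DESeq2, -0.0045 with RLE, -0.0607 with upper quartile and -0.45 with column total scaling, -0.0221 with only the S72h and Control groups in the model and -1.16 with the replicate number as a block. It was also negative without Control replicate 2 (-0.15), 3 (-0.13) or 5 (-0.14). None of these passed the test.

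When each mouse counted equally on the log2 scale, all 3 differences from Control were negative and none passed the test. They were nearer to 0 than the fitted values for S6h and S24h and farther from it for S72h. Mean log2 CPM of miR-122-5p was 14.90 ± 2.53 in Control, 13.12 ± 1.48 in S6h, 14.19 ± 1.1 in S24h and 13.81 ± 2.20 in S72h (SD, n = 6). S6h was lower than Control by a difference of -1.77 (exact two-sided permutation test over 924 assignments, p = 0.167, adjusted over the 6 pairs 0.584). The difference was -0.71 for S24h (exact permutation p = 0.528, adjusted 0.732) and -1.09 for S72h (exact permutation p = 0.50, adjusted 0.732). The smallest p that 6 against 6 mice allow is 0.0022. A fall of miR-122-5p after surgery was thus not detectable at this spread.

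Between the times after surgery, miR-122-5p was likewise not called. In S24h against S6h its log2 fold change was 0.66 (SE 0.96, interval -1.29 to 2.61, edgeR adjusted p = 0.729), where 51 of 252 miRNAs were called (20.2%), 16 higher and 35 lower, or 23 and 20 with upper quartile scaling. In S72h against S24h it was 2.09 (SE 0.99, interval 0.07 to 4.11, edgeR adjusted p = 0.431), where 1 miRNA was called (0.397%). In S72h against S6h it was 2.75 (SE 1.02, interval 0.68 to 4.82, edgeR adjusted p = 0.0780), where 25 were called (9.92%), 11 higher and 14 lower, or 19 and 10 with upper quartile scaling. Both values of S72h turned negative without S72h replicate 4, to -1.496 (edgeR adjusted p = 0.531; 0.397% of miRNAs called) against S24h and to -0.91 (edgeR adjusted p = 0.568; 11.9% called) against S6h. In the exact permutation tests of mean log2 CPM, the differences were 1.07 (adjusted p = 0.584), -0.38 (adjusted p = 0.755) and 0.68 (adjusted p = 0.732) in the same order. S72h was thus above S24h in fitted arithmetic means and below it in mean log2 level.

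**Figure D2:**
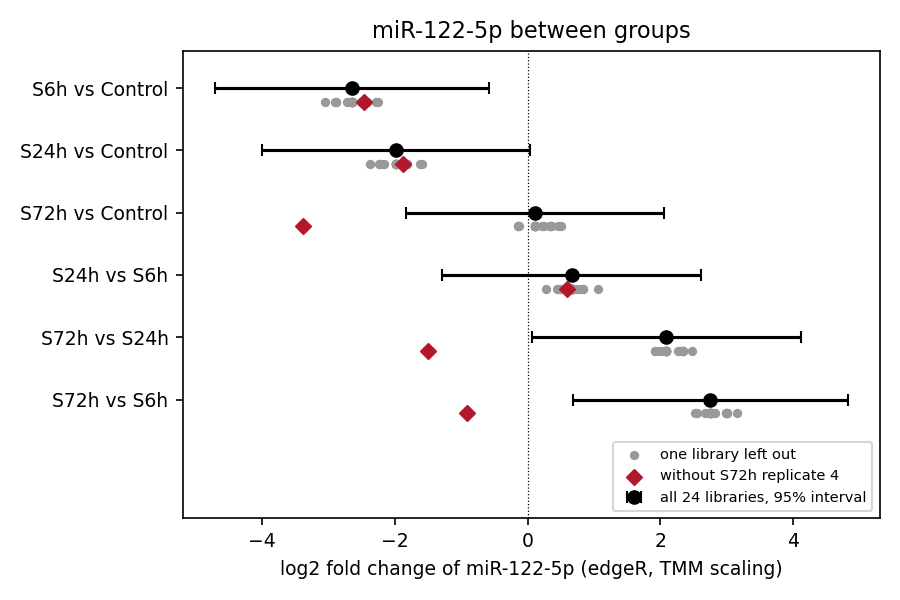
log2 fold change of miR-122-5p in the 6 comparisons of groups (x axis; edgeR, TMM scaling); black points with bars are the values and 95% intervals from all 24 libraries, grey points leave out 1 library each and red diamonds leave out S72h replicate 4. The red diamond moves from 0.11 to -3.37 in S72h against Control, and from 2.75 to -0.91 in S72h against S6h.

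The calls also depended on the filter. Without any minimum, so that all 667 counted miRNAs entered the model, the log2 fold changes of miR-122-5p hardly moved but their SEs fell to near 0.31. miR-122-5p was then called lower in S6h (-2.76, edgeR adjusted p = 9.1e-16, 0.3% of miRNAs called) and in S24h than in Control (-1.95, edgeR adjusted p = 2.5e-08, 5.7% called). It was called higher in S72h than in S24h (1.96, edgeR adjusted p = 8.2e-08, 1.5% called) and in S72h than in S6h (2.77, edgeR adjusted p = 7.1e-16, 3.45% called). It was not called in S72h against Control (1.2% called) or in S24h against S6h (6.75% called). These SEs stand beside a within-group SD of 1.91 on the log2 scale. Why they fell was not tested.

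The groups were also compared in how far mice lay from each other. The mean distance of a mouse from its group's median log2 CPM of miR-122-5p was 2.27 in Control, 1.08 in S6h, 0.91 in S24h and 1.18 in S72h. S24h was narrower than Control by -1.35, with the smallest p the design allows (two-sided permutation test of these distances, p = 0.0022, adjusted over the 6 pairs 0.0130). The distances were taken before mice were permuted, so the p-values for spread are approximate. The Control median, 15.12 on the log2 scale, lay in the gap between its low and high mice, away from all 6. Leaving out any 1 of the 6 Control mice ended the call of S24h against Control (adjusted p = 0.968 each, with differences of -1.07 to -0.79). The differences of S6h (-1.19, permutation p = 0.0498, adjusted 0.149) and S72h (-1.09, permutation p = 0.219, adjusted 0.437) from Control did not pass. The difference passed for S6h without S6h replicate 3 (-1.51, adjusted p = 0.0390) and for S72h without S72h replicate 4 (-1.92, adjusted p = 0.0065). Among the surgery groups the adjusted p was 0.968 in each pair.

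miR-122-3p, the passenger strand, was rare beside the 5p arm. It had 255 counts in all, which was 0.176% of the counts of both arms (95% interval 0.155 to 0.199%). Without S72h replicate 4 the share was 0.0948%. The 3p arm was found in 11 of 24 libraries and did not reach the minimum for testing. In Control replicates 1 to 6 it had 40, 2, 0, 10, 0 and 6 counts. In S6h it had 27 counts in replicate 4, 7 in replicate 5 and 0 in the others. In S24h it had 4 counts in replicate 2, 7 in replicate 6 and 0 in the others. In S72h it had 149, 1 and 2 counts in replicates 4, 5 and 6 and 0 in the others. S72h replicate 4, the library highest in the 5p arm, was thus also highest in the 3p arm, with 1344 CPM and 58.4% of all counts of that arm.

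The number of libraries with miR-122-3p was 4 in Control, 2 in S6h, 2 in S24h and 3 in S72h, and no pair of groups passed the test (Fisher's exact test, two-sided, p = 0.567 for S6h and for S24h against Control and 1 for the other 4 pairs). The 13 libraries at 0 had up to 4584 counts of the 5p arm. In that library, S6h replicate 2, 8.06 counts of the 3p arm would correspond to the share over all libraries, and 4.34 to the share without S72h replicate 4. At the other extreme, Control replicate 2 had 2 counts of the 3p arm beside only 235 of the 5p arm.

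The share of the 3p arm differed between libraries with many counts of miR-122-5p by more than the binomial intervals of their reads. These intervals treat reads as independent, and PCR copies may make them too narrow. It was 0.448% in S72h replicate 4 (95% interval 0.379 to 0.526%) and 0.487% (0.321 to 0.708%) in S6h replicate 4, the deepest library, whose 5519 counts of the 5p arm were only 11698 CPM. It was 0.0949% in Control replicate 1 (0.0678 to 0.129%) and 0.0475% in Control replicate 4 (0.0228 to 0.0873%). The intervals of the first pair of libraries did not overlap with those of the second pair, although the 5p arm was counted 42098 times in Control replicate 1 and 33079 times in S72h replicate 4. Per group, the pooled share was 0.0738% in Control, 0.218% in S6h, 0.0874% in S24h and 0.397% in S72h, and the values of S6h and S72h each rested on replicate 4. Without these libraries the share was 0.0695% in S6h and 0.0598% in S72h. Shares pooled over mice were not tested between groups.

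**Figure D3:**
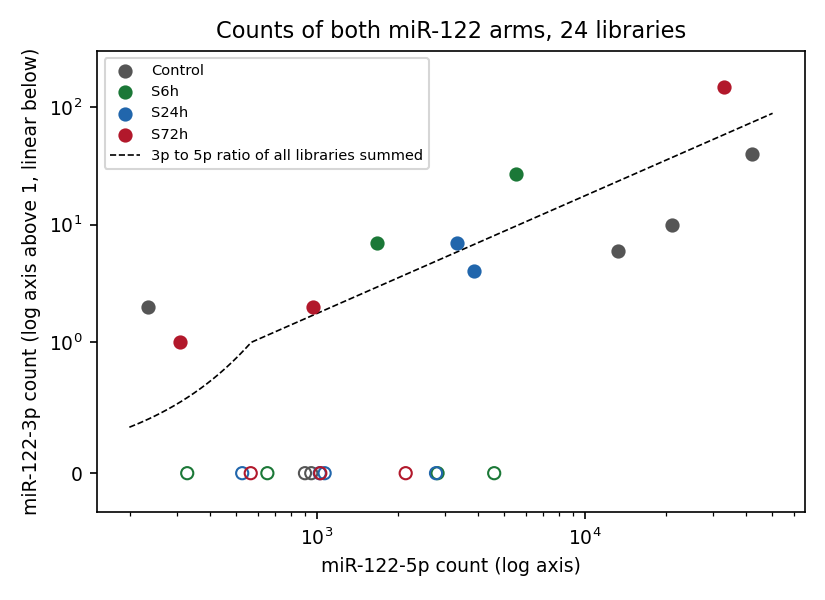
Counts of miR-122-3p (y axis, log above 1 and linear below) against miR-122-5p (x axis, log) in the 24 libraries, coloured by group, with open circles for 0 counts of the 3p arm and a dashed line at the ratio of all libraries summed. S72h replicate 4 (149 counts) and S6h replicate 4 (27 counts) lie above the line, and the 3 richest Control libraries (40, 10 and 6 counts) lie below it.

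Other miRNAs known to be enriched in liver were set beside miR-122. The list held 12 mature miRNAs, both arms of miR-122 included. Of these, 6 passed the minimum for testing, and miR-802-3p had no count. By edgeR, 1 of the 6 was called in any of the 6 comparisons. This was miR-148a-3p, a hepatocyte miRNA that targets the LDL receptor, which was lower in S24h than in Control (log2 fold change -1.62, SE 0.49, edgeR adjusted p = 0.0239). In that comparison 11.9% of all tested miRNAs were called and 7.94% were called lower, so that 1 call among 6 is near the background. In the same comparison miR-192-5p had -1.71 (edgeR adjusted p = 0.0624) and miR-194-5p had -1.80 (edgeR adjusted p = 0.0989). The median log2 fold change of the 6 was -1.67, beside -0.21 for all tested miRNAs. At 6 h it was -0.56 beside -0.02, and at 72 h -0.20 beside -0.06. The median at 72 h lies between miR-192-5p (-0.50) and miR-122-5p (0.11), whose value rests on S72h replicate 4. The erythroid, striated muscle and myeloid and platelet markers described below had medians of -1.26, -0.49 and 0.31 at 24 h against Control. At 6 h their medians were -0.48, 1.83 and 0.09. In the liver list, miR-101b-3p and miR-365-3p, the other 2 that passed, were not called, and the latter had 0 counts in 11 libraries.

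miR-192-5p, which is made in liver and gut epithelium, was correlated with miR-122-5p from mouse to mouse. In Control replicates 1 to 6 it had 10455, 2095, 4380, 5014, 1843 and 11818 CPM, and the 3 mice high in miR-122-5p were also the 3 highest here. Its largest value in S24h, 7575 CPM, was in replicate 2, which was also the mouse with most miR-122-5p. In S72h the order turned on the denominator. Replicate 4 had 6558 CPM of miR-192-5p and replicate 3 had 6936 CPM of the whole total, but 9348 and 7028 CPM, respectively, of the total without miR-122-5p. The ratio of miR-122-5p to miR-192-5p counts ran from 0.97 in S6h replicate 3 to 45.5 in S72h replicate 4.

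Correlations were computed over the 24 libraries on log2 values centred on each group's mean, with the partner miRNA scaled to the total without miR-122-5p and 9 relations adjusted together. For miR-192-5p, Pearson's r was 0.655 (permutation test within groups, p = 0.0011, adjusted 0.0103) and Spearman's rho was 0.717 (adjusted 0.0014). r was 0.577 without the 2 farthest libraries, Control replicate 2 and S72h replicate 4. It was 0.482 (permutation test, adjusted p = 0.0248) in the 20 libraries under 100000 CPM of miR-122-5p, a restriction chosen after the data were seen. Within the groups r was 0.89 in Control, 0.43 in S6h, 0.86 in S24h and 0.58 in S72h, each over 6 mice. The relation to miR-192-5p thus held without the 4 libraries richest in miR-122-5p.

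miR-194-5p, which shares a cluster with miR-192, had r = 0.584 (permutation test, adjusted p = 0.0528) and rho = 0.550 (adjusted 0.0322). This relation was not stable, since r was 0.332 without the 2 farthest libraries and -0.0431 in the 20 libraries under 100000 CPM. Within the groups r was 0.91 in Control, 0.56 in S6h, -0.54 in S24h and 0.89 in S72h. S72h replicate 4 had 338 counts and 3049 CPM of miR-194-5p, while the other 23 mice had at most 1140 CPM. In S24h replicate 2, where miR-122-5p was highest of that group, only 1 count of miR-194-5p was found. For miR-148a-3p r was 0.426 (permutation test, adjusted p = 0.146).

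**Figure D4:**
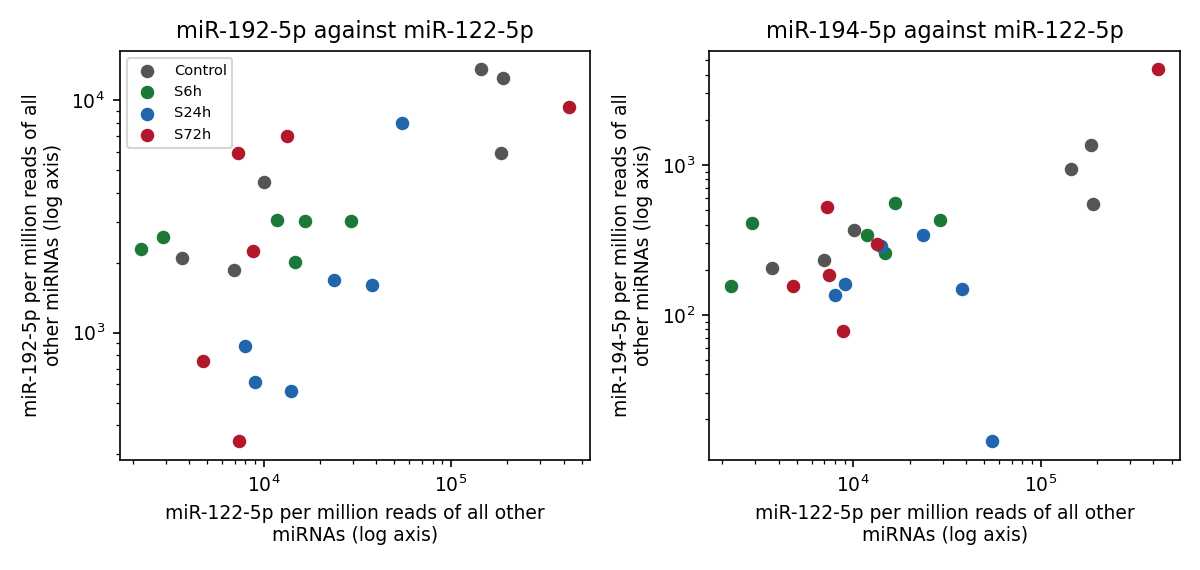
miR-192-5p (left) and miR-194-5p (right) against miR-122-5p in the 24 libraries, each as CPM of all miRNAs other than miR-122-5p, on log axes, coloured by group. The 4 libraries richest in miR-122-5p are also high in miR-192-5p, with a loose relation among the other 20 (r = 0.482), while for miR-194-5p the S72h library at the upper right (replicate 4) and the S24h library at the lower edge (replicate 2, 1 count) stand apart.

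miRNAs of blood cells and muscle were examined in the same way, because serum was taken from clotted blood drawn through the heart. The erythroid miRNAs miR-451a (r = -0.209, adjusted p = 0.519) and miR-16-5p (r = 0.190, adjusted p = 0.519) did not pass the permutation test, nor did the muscle miRNAs miR-1a-3p (r = 0.193, adjusted p = 0.538) and miR-133a-3p (r = -0.254, adjusted p = 0.519). For miR-451a the groups went opposite ways, with r of -0.07 in Control, -0.99 in S6h, 0.63 in S24h and -0.32 in S72h, each over 6 mice and not tested within groups. miR-223-3p, of myeloid cells and platelets, had r = -0.502 (permutation test, adjusted p = 0.0589) and rho = -0.544 (adjusted 0.0271). Its r was negative in each group, at -0.74 in Control, -0.85 in S6h, -0.32 in S24h and -0.35 in S72h. In the 20 libraries under 100000 CPM of miR-122-5p neither passed, with r = -0.351 (adjusted p = 0.524) and rho = -0.377 (adjusted p = 0.556). The log2 total of all other miRNAs had r = 0.0751 (adjusted p = 0.749) and did not pass either.

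Beside the comparisons of miR-122-5p, the summed level of the 5 erythroid markers ranged from 51997 to 97191 CPM in Control, 39921 to 84393 in S6h, 19849 to 61421 in S24h and 20072 to 111318 CPM in S72h. Of these markers 3 of 5 were called lower in S24h than in Control, where 7.94% of all tested miRNAs were lower, and 1 of 5 (miR-16-5p) was called lower in S72h than in Control (1.59% of all). The 8 striated muscle markers summed to 34170 to 90311 CPM in Control, 60203 to 265737 in S6h, 15682 to 43550 in S24h and 6533 to 237759 CPM in S72h, and 1 of the 8 had no count. None of the 6 that passed was called against Control. The 6 myeloid and platelet markers summed to between 4412 and 16961 CPM in all groups, also with no call against Control. In S24h against S6h, where 13.9% of all tested miRNAs were called lower, 2 of 5 erythroid, 3 of 6 muscle and 1 of 6 myeloid and platelet markers were called lower. In S72h against S6h (5.56% of all lower) 1 erythroid marker, miR-16-5p, was called lower, and in S72h against S24h none of the markers was called. No marker of these lists was called higher in any comparison. The part of blood cell and muscle RNA in the values of miR-122-5p was not tested.

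Over the 251 other tested miRNAs, the group-centred r with miR-122-5p had a median of -0.07, and 90% of the values lay between -0.44 and 0.35. As a description, the 5 miRNAs most like miR-122-5p over the 24 libraries were miR-182-5p (r = 0.70), miR-192-5p (0.65), miR-194-5p (0.58), miR-92a-3p (0.54) and miR-125a-5p (0.50). miR-182-5p had 0 counts in 10 libraries, so that its rank rests on few counts. The 3 least like it were miR-145a-5p (-0.65), a smooth muscle miRNA, miR-218-5p (-0.56) and miR-532-5p (-0.54). Of these, miR-218-5p had 0 counts in 8 libraries and a median of 6.5 counts, so that its rank also rests on few counts. These points share their libraries and their library totals, and no test was made on them.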

How the data were processed

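Small RNA of serum EVs from 24 mice was sequenced by the study. Per its methods, the authors used cutadapt for adapter removal, Bowtie for alignment to GRCm38/mm10, Samtools for selection by read length and featureCounts with the miRBase annotation for counting; multi-mapping and strand settings are not given in the sources used here. The deposited values are whole-number read counts per mature miRNA, without normalization. Columns were assigned to samples by their labels, and no 2 libraries were identical.

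CPM were computed from column totals, with 0.5 added to counts on the log2 scale. miRNAs with at least 10 CPM in at least 12 libraries were fitted in edgeR 4.0.16 (R 4.3.3; TMM scaling, all 4 groups, quasi-likelihood). DESeq2 (here version 1.42.0), the tool of the study, was an alternative, as were other scalings, filters, models, a replicate block and leaving out each library. Permutation tests over all assignments, Fisher's tests and correlations (100000 permutations within groups) were run in Python 3.11.15 with scipy 1.17.1. The edgeR fit was tested on simulated counts. Named miRNAs were both arms, liver list members that passed, the partners of the correlations, the 5 most and 3 least correlated miRNAs and the 2 most abundant ones; miR-215-5p was added for its spread after its value was seen. Of 10 planned relations, 1 (miR-802-5p) was not run, because this miRNA did not pass the minimum. The members and marker lists were chosen with earlier results of these data known. RefSeq held sequences for 14 of 18 miRNAs looked up, and hairpin positions are from the Gencode annotation of GRCm38. One library was made per mouse, so that p-values reflect the spread between mice together with that of sample preparation.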

Additional observations from a re-analysis of the deposited data

Results flagged for a closer look

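A library was marked where the gap from the highest or lowest mouse to its nearest neighbour, divided by the range of its group of 6, was above 0.625, the critical value of Dixon's test. Of 40 groups examined 8 were marked, where chance gives about 1 in 20 groups, or 2. For miR-122-5p on the log2 CPM scale the ratio was 0.754 for S72h replicate 4, the library on which the direction at 72 h rests. The same library had a ratio of 0.989 for the CPM of miR-122-3p (1344 CPM) and, as the highest of its group, 0.710 for the log2 CPM of miR-182-5p, at only 3 counts. miR-182-5p also had 0.724 in S6h replicate 3, and miR-365-3p had 0.660 in the same library, where it had 0 counts. The remaining ratios were 0.685 for miR-194-5p in S24h replicate 2 (1 count), 0.703 for miR-148a-3p in Control replicate 2 and 0.784 for miR-125a-5p in S72h replicate 6. No cause of these values was tested.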

How the results depend on the processing

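The counting error of miR-122-5p was small beside the spread between libraries. With 1 library per mouse, differences between mice and those from EV isolation and library preparation cannot be told apart. miR-122-3p was found in only 11 of 24 libraries, and how far this rests on depth was not tested. Of 60 fitted values of miR-122-5p under alternatives other than leaving out a library, 50 kept their direction and their side of the threshold. Without a filter on low counts it was called in S6h (-2.76) and S24h against Control (-1.95), and in S72h against S24h (1.96) and S6h (2.77), with SEs near 0.31 and edgeR adjusted p from 7.1e-16 to 8.2e-08; the cause was not tested. In the same fit miR-122-3p was called in S72h against S24h (4.41) and S6h (4.04). S72h replicate 4 held 149 of the 152 counts of miR-122-3p in S72h, and this fit was not repeated without it. In S72h against Control the sign of miR-122-5p reversed with DESeq2 (-0.0042), RLE (-0.0045), upper quartile (-0.0607) and column total scaling (-0.45), with only 2 groups in the model (-0.0221) and with a replicate block (-1.16). Counts of miRNAs called moved to 2 without a filter in S6h against Control, and to 50 with DESeq2 in S24h against Control. In S72h against Control they moved to 27 (DESeq2), 19 (upper quartile), 2 (column totals), 15 (library sizes without miR-122-5p), 1 (10 CPM in 6 libraries), 0 (only 2 groups) and 1 (replicate block). In S72h against S24h they moved to 4 (DESeq2), 10 (no filter) and 0 (only 2 groups).

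Requiring at least 3 counts of miR-122-3p turned the difference in libraries with a count to -1 in S72h against S24h and against S6h. Among the correlations, r with the log2 total was -0.0763 without centring, r with miR-194-5p was 0.514 without centring (adjusted p = 0.0445 by permutation) and -0.0431 in the 20 libraries under 100000 CPM. On the whole column total r was -0.0191 with miR-16-5p and -0.614 with miR-223-3p (adjusted p = 0.0126 by permutation). For miR-223-3p r was -0.414 without centring (adjusted p = 0.132 by permutation) and -0.351 in the 20 libraries (adjusted p = 0.524).

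Leaving out each library in turn gave log2 fold changes of miR-122-5p of -3.05 to -2.24 (S6h against Control), -2.36 to -1.58 (S24h against Control), -3.37 to 0.51 (S72h against Control), 0.28 to 1.07 (S24h against S6h), -1.496 to 2.47 (S72h against S24h) and -0.91 to 3.16 (S72h against S6h). Calls were 0 to 0, 20 to 42, 1 to 14, 32 to 53, 1 to 5 and 13 to 35 in that order. S72h against Control had 14 calls without S72h replicate 1 and 1 without Control replicate 2, Control replicate 5 or S72h replicate 5. Differences in mean log2 CPM were -2.38 to -1.30, -1.32 to -0.23, -1.96 to -0.61, 0.67 to 1.40, -1.26 to -0.07 and -0.19 to 1.02. Differences in spread were -1.51 to -0.62, -1.55 to -0.79, -1.92 to -0.52, -0.37 to 0.16, -0.56 to 0.47 and -0.73 to 0.42.

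The groups share replicate numbers, but the numbers did not pair the mice. Of 36 pairs of libraries with the same number, 5 had deviations correlated by more than 0.1, and 6 of 24 libraries correlated best with their own number. With the replicate block the log2 fold changes of miR-122-5p were -2.06, -1.29, -1.16, 0.76, 0.14 and 0.90 in the order above, and none was called.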
